A study of Mus musculus with 30 samples.

Results

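Anisomycin and the cytokine TNFα both activate the p38 stress-activated protein kinase, and their early transcripts in mouse embryonic fibroblasts (MEFs) were set against each other after 45 min. The comparison was made of 4 of the 30 arrays of the study, namely the 2 arrays of wild type MEFs given 25 ng/ml anisomycin and the 2 arrays of wild type MEFs given 100 ng/ml TNFα, matched by their replicate number and chosen by these labels alone. Neither group received the p38 inhibitor SB203580. The cells were immortalised MEFs grown in serum, and both replicates of a group came from independent experiments. On every 2-colour array Cy5 carried the treated cells, while Cy3 carried RNA pooled from 2 cultures of unstimulated wild type MEFs, without a dye swap. A level is given here as the log2 ratio to this pool, and a difference as the level with anisomycin minus the level with TNFα, in which the pool cancels. Other pairs of groups served as a comparison: wild type MEFs given 10 µM SB203580 for 30 min before either agent (4 arrays; dose and time as in the protocol, while the array titles give 10 mM and 2 h), and p38α-/- MEFs given either agent without inhibitor (4 arrays).

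TNFα is a secreted ligand whose receptor TNFR1 assembles an adaptor complex at the membrane, which activates the IκB kinases and the MAP kinase cascades. Freed NF-kB dimers then enter the nucleus and switch on genes of chemokines, adhesion molecules and inhibitors of the pathway itself. Anisomycin binds the ribosome, and at low doses it triggers the ribotoxic stress response, in which stalled ribosomes activate p38 and JNK. Immediate early genes, which are transcribed without new protein synthesis, are the first targets of these kinases.

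In total, 13980 genes were measured on all 4 arrays and tested with limma. The spread behind each SE and p-value came from all 22 wild type arrays, not from these 4 alone. The 22 include MEFs given 100 mM NaCl for 45 min, 2 h or 8 h, without or with SB203580, and SB203580 alone. For p38α-/- MEFs all 30 arrays were fitted, with untreated and NaCl-treated p38α-/- MEFs among them. limma on only the 4 arrays called 0 genes (1201 at an unadjusted p under 0.05). In the fit of the 22 arrays, 15 of the 13980 genes were higher with TNFα at an adjusted p under 0.05 (0.107% of the genes tested). Another 14 were higher with anisomycin (0.1%), 29 in all (0.207%). At an unadjusted p under 0.05 the share was 6.1%. A difference of at least 2-fold was also met by 13 (0.093%) and 11 (0.0787%) of these. The genes higher with TNFα included the chemokines Ccl20, Cxcl5 and Cxcl10 and the NF-kB inhibitor Tnfaip3, and those higher with anisomycin included the immediate early genes Jun, Btg2 and Egr1. All 29 differences had the same sign in both replicate pairs. So had 56.01% of all genes tested, and 91.89% of the 111 genes with a mean difference of at least 1 log2 unit. The 2 anisomycin arrays did not overlap with the 2 TNFα arrays for 28 of the 29 genes, a property of 28.2% of all genes tested. The 29 genes were called on these same arrays, so neither the shared sign nor the lack of overlap is independent support. Leaving out 1 array lowered the count of genes higher with anisomycin to 8 without the first and 10 without the second anisomycin array, and to 3 without the first and 5 without the second TNFα array. For genes higher with TNFα these counts were 8, 9, 11 and 12. Of the 29 genes, 10 were called with each of the 4 arrays left out in turn, among them Ccl20, Cxcl5, Cxcl10, Tnfaip3, Olfr1015 and Ch25h on the TNFα side and Btg2, Chka and Gdap10 on the anisomycin side. None of the 14 anisomycin genes kept its call under every other setting: limma on the 10 wild type arrays without SB203580 called 0 genes higher with anisomycin and 7 higher with TNFα (746 genes at an unadjusted p under 0.05 in either direction).

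Arrays of one group differed in quality. Between 7.26% and 35.8% of the spots of an array carried an outlier mark of the scanner software, and 7709 of 21689 named genes had no probe free of such marks on all 4 arrays. These genes, among them Dusp1, Ccl2, Cxcl1, Nfkbia and Fos, could be described with the marked spots kept, and each such value is named below as one that includes marked spots. With marked spots kept, 31 of 21689 genes were higher with TNFα (0.143%) and 34 with anisomycin (0.157%), at 5.17% of genes with an unadjusted p under 0.05. At least 2-fold were 26 (0.12%) and 22 (0.101%) of them, and 24 of the 29 genes above were among them. Between 92.6% and 95.3% of the spots were well above background in Cy5. All 12 fibroblast markers on the array passed this mark on the 4 arrays, but so did all 8 macrophage, 6 endothelial and 7 epithelial markers, so the mark does not tell cell types apart. No marker of these 4 cell types was called in either direction.

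**Figure D1:**
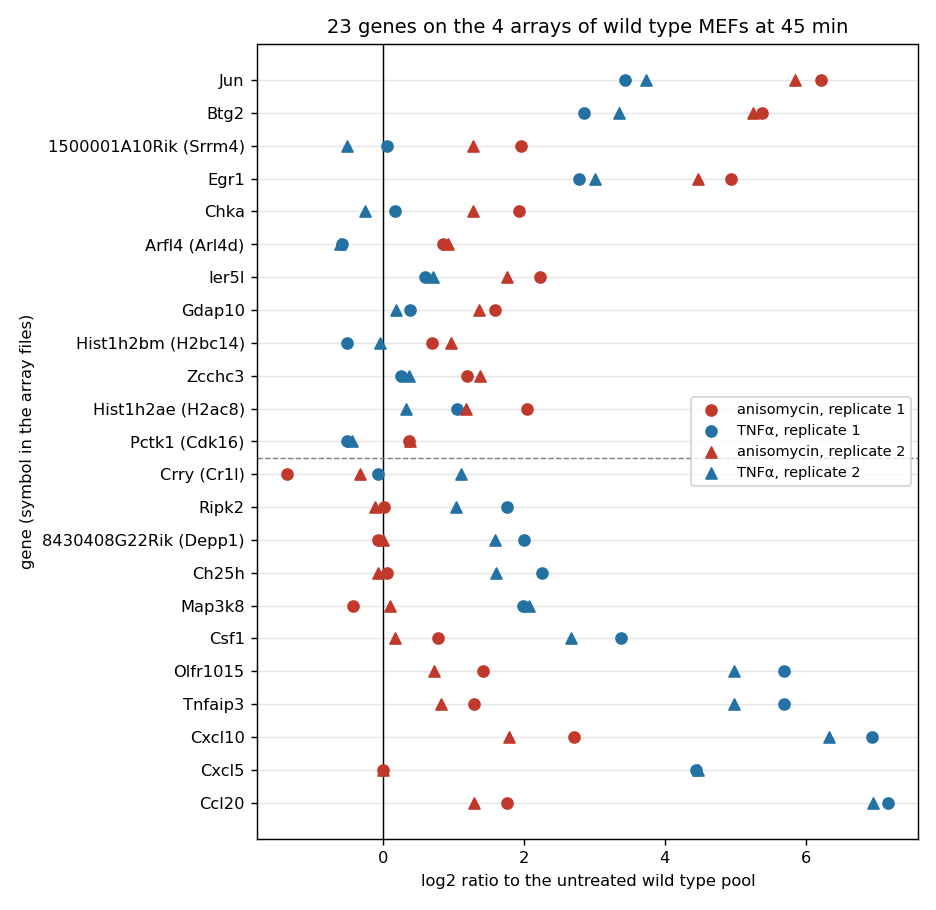
Level of 23 genes on the 4 arrays, as the log2 ratio to the untreated wild type pool; circles are replicate 1 and triangles replicate 2, red is anisomycin and blue TNFα, and the 11 genes under the dashed line were higher with TNFα. Jun, Btg2, Egr1, Ccl20 and Cxcl10 were more than 2-fold above the pool on all 4 arrays.

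Chemokines are small secreted proteins that attract leukocytes. Ccl20, the ligand of the receptor Ccr6, had levels of 7.18 and 6.96 on the TNFα arrays and 1.76 and 1.29 on the anisomycin arrays. Its difference of -5.54 ± 0.29 (SE with the spread of the 22 wild type arrays, n = 2 arrays per group, adjusted p = 5.72e-07) corresponded to 46.6-fold, the largest among the genes tested. Cxcl10, which attracts activated T cells through Cxcr3, reached 6.94 and 6.34 with TNFα. With anisomycin its levels were 2.71 and 1.79, so that both agents exceeded the pool on every array and TNFα exceeded anisomycin by 20.9-fold (difference -4.39 ± 0.22, adjusted p = 5.72e-07). Cxcl5, a neutrophil attractant, was well above background in Cy5 only with TNFα, where its ratios were 4.44 and 4.47. It was not well above background in Cy5 on either anisomycin array nor in Cy3 on any array, where the software writes a ratio of 0.00, and its level with TNFα was at least 6.31-fold higher. The TNFα ratios thus stand over a Cy3 signal that was not well above background. The adjusted p of 0.000103 (limma) sets them against these written zeros and does not compare measured levels. Cxcl5 is counted among the 15 genes on that basis.

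Other chemokines could be measured only with marked spots kept. Ccl2, the monocyte attractant MCP-1, was at 4.29 and 3.51 with TNFα and at 0.10 on both anisomycin arrays, a difference of -3.80 ± 0.17 (2 of 4 spots marked). Ccl7 was at 4.10 and 3.20 with TNFα and at 0.65 and 0.12 with anisomycin (2 of 8 spots marked). Cxcl1 was at 3.27 and 2.44 with TNFα and at -0.08 and -0.05 with anisomycin, although all 4 of its spots were marked. The adjusted p of the differences was 1.38e-07, 7.7e-07 and 2e-06 by limma in this order. Neither anisomycin array reached the lower TNFα array for any of them. With marked spots left out, the groups did not overlap for 28.2% of all genes tested. Of the 10 CXC and CX3C chemokines tested with marked spots left out, 2 were higher with TNFα and none with anisomycin, and of 12 CC chemokines 1 and none. The median difference was -0.23 and 0.08 in these lists, against -0.0036 over all genes, so that a few members stood far from the others. Cxcl2 missed the threshold at a difference of -1.43 (adjusted p = 0.0709), and Ccl22, with levels of 2.75 and 1.54 for anisomycin and 0.70 and 0.10 for TNFα, at a difference of 1.75 (adjusted p = 0.184) and with 1 array of each group well above background.

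Regulators of TNF receptor signalling and NF-kB formed the next group. Tnfaip3 encodes A20, the ubiquitin-editing enzyme that shuts the pathway off. Its levels were 5.69 and 4.98 with TNFα and 1.29 and 0.81 with anisomycin, a difference of -4.29 ± 0.24 or 19.5-fold (adjusted p = 2.58e-06). Map3k8, the kinase Tpl2 that lies upstream of ERK, was at 1.99 and 2.07 with TNFα and within 0.5 of the pool with anisomycin (-0.43 and 0.10), a difference of -2.20 ± 0.33 (adjusted p = 0.0159). Ripk2, the adaptor kinase of the NOD receptors, was at 1.76 and 1.04 with TNFα and at 0.01 and -0.11 with anisomycin, a difference of -1.45 ± 0.23 (adjusted p = 0.021). All 3 were thus raised over the pool with TNFα, and Map3k8 and Ripk2 stayed close to the pool with anisomycin.

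In the NF-kB list, 3 more members were higher with TNFα when marked spots were kept. Nfkbia, which encodes the inhibitor IκBα, was at 0.65 and 0.67 with TNFα and under the pool at -0.78 and -0.61 with anisomycin, so that the agents lay on opposite sides of the pool (difference -1.36 ± 0.13, adjusted p = 0.000134, 3 of 4 spots marked). Nfkbiz, the nuclear protein IκBζ, was at 3.40 and 3.43 with TNFα and at 1.43 and 1.30 with anisomycin (1 of 4 spots marked). Nfkb1, the p105 precursor, had no marked spot and was at 1.42 and 0.82 against 0.48 and -0.10. Its difference of -0.93 was called with marked spots kept (adjusted p = 0.0248) and missed the threshold in the fit of unmarked genes (0.0597), at the same levels. Of the 7 members tested without marked spots only Tnfaip3 was called, and 6 had a negative difference (list median -0.21). Among 16 genes of TNF receptor signalling 1 was called, Map3k8, at a list median of -0.02, so that most receptors and adaptors lay close to no difference. Tnfaip2 joined it with marked spots kept, at 2.82 and 2.32 for TNFα and 0.32 and 0.31 for anisomycin (1 of 4 spots marked).

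Olfr1015, annotated as an olfactory receptor, had levels of 5.69 and 4.99 with TNFα and 1.42 and 0.72 with anisomycin. These lay within 0.14 of the Tnfaip3 levels on all 4 arrays. Over the 30 arrays the median gap between both genes was 0.24 and the largest 1.14. Whether its probe also binds Tnfaip3 transcripts was not tested.

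The remaining genes higher with TNFα act outside these pathways. Csf1, the growth factor of macrophages, was at 3.37 and 2.67 with TNFα and at 0.77 and 0.17 with anisomycin (-2.55 ± 0.36, adjusted p = 0.00689). Ch25h, the enzyme that makes 25-hydroxycholesterol, was at 2.25 and 1.60 with TNFα and did not leave the pool with anisomycin at 0.06 and -0.08 (-1.93 ± 0.16, adjusted p = 4.35e-05). The same pattern held for 8430408G22Rik (now Depp1), at 1.99 and 1.58 with TNFα and -0.08 and 0.00 with anisomycin. In sum, 9 of the 15 genes were within 2-fold of the pool on both anisomycin arrays, and 3, Ccl20 and Cxcl10 among them, were more than 2-fold above it.

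Some of these 15 genes rested on weaker evidence. Crry (now Cr1l), a regulator of complement, rested on 1 of its 2 probes and differed more between the replicates of a group (-1.36 and -0.33 with anisomycin, -0.08 and 1.11 with TNFα) than most. For Egfr, the receptor of epidermal growth factor, the probes ranged from -2.18 to 0.15, so that they did not share a sign. The transcript 1500037F05Rik was the gene whose groups overlapped, with 1.36 and -0.20 for TNFα against 0.07 and -0.92 for anisomycin. Crry and Egfr were not called with marked spots kept, nor were 1500001A10Rik and Pctk1 on the anisomycin side.

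Adhesion and inflammatory genes were also carried by few members. Of the 14 genes tested 1 was called with marked spots left out, and 11 of 14 had a negative difference (list median -0.21). Vcam1, the ligand of the integrin VLA-4, was, with marked spots kept, at 2.78 and 2.30 with TNFα and at -0.12 and 0.09 with anisomycin. Its value depended on the probes: the 1 probe free of marks on all arrays gave -0.93 (adjusted p = 0.383) and all 3 probes, with 2 of 12 spots marked, gave -2.56 (adjusted p = 8.9e-05). Sele, which encodes E-selectin, was at 2.29 and 2.20 against 0.46 and 0.28, with an adjusted p of 0.0472 with marked spots kept and 0.0681 without. Irf1, a transcription factor of the interferon response, was at 2.17 and 1.67 with TNFα and at 0.20 and 0.09 with anisomycin (4 of 8 spots marked). With marked spots kept it was the only called member of 31 interferon response genes. The cytokine gene Tnf itself was at 0.60 and 0.29 with TNFα and at -0.33 and -0.28 with anisomycin (-0.75 ± 0.11, adjusted p = 0.00718, 1 of 4 spots marked).

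Promoter sequence is shown for some called genes, picked because their proximal promoters carry letters of known stress and inflammatory motifs. Nfkbia, Cxcl1 and Dusp1 among them were called only with marked spots kept. Other called genes with a match, such as Ch25h on the TNFα side, are not printed. The sequences are RefSeq promoter windows of GRCm38.p6, cut at the start site, and the capitals mark matches to the NF-kB consensus on either strand.
Ccl20, chr1:83116656-83116725, plus strand: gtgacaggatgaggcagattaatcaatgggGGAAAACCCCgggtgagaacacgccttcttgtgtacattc
Cxcl10, chr5:92348953-92349078, minus strand: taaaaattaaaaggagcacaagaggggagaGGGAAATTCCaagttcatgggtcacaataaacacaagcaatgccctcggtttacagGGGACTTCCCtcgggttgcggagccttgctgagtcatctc
Tnfaip3, chr10:19015411-19015565, minus strand: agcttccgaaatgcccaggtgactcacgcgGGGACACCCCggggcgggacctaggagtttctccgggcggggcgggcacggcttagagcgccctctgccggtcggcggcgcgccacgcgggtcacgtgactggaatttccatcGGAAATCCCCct
Csf1, chr3:107760584-107760653, minus strand: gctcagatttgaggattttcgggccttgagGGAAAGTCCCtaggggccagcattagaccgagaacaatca
Nfkbia, chr12:55492648-55492706, minus strand: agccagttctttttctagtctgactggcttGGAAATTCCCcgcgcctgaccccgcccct
Cxcl1, chr5:90891144-90891214, plus strand: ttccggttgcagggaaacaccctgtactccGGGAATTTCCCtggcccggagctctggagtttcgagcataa
In Cxcl1 the capitals hold 2 overlapping matches. The stretch of Ccl20 runs from 110 to 41 bases before the start, and that of Nfkbia from 59 bases before it up to the start. The Cxcl10 and Tnfaip3 stretches also each hold a match to TGANTCA, left in lower case.

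The capitals in the following stretches mark TGACNTCA, the letters of the CRE and of the Jun-ATF site, in genes that were higher with anisomycin.
Jun, chr4:95052230-95052297, minus strand: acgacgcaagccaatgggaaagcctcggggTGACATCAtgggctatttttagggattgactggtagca
Btg2, chr1:134079268-134079351, minus strand: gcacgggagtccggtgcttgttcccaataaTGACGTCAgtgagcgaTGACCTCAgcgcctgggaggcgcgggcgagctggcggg
Arfl4 (Arl4d), chr11:101665485-101665540, plus strand: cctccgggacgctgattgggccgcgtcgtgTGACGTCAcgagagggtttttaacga
Dusp1, chr17:26508578-26508645, minus strand: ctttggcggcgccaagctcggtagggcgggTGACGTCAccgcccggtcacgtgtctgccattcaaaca
Windows from 250 bases before to 50 after the start were searched on both strands. A window was found for 9 of the 15 genes higher with TNFα. Of these 9, 4 (Ccl20, Cxcl10, Tnfaip3 and Csf1) held the NF-kB consensus, against 5.14% of all 27025 genes with a window, tested or not. None of the 12 genes with a window on the anisomycin side held it. These counts were 9 of 19 and 1 of 25 with marked spots kept. TGACNTCA was found in 2 of 9 genes (Ch25h and Tnfaip3) and 3 of 12 genes (Jun, Btg2 and Arfl4), and with marked spots kept in 5 of 19 (26.3%) and 6 of 25 (24%), against 10% of all genes, and TGANTCA in 2 of 9 and none of 12, against 8.97%. The CArG box was found in no called gene with a window, and these genes are too few to tell this from the 1.81% of all genes. The motifs were chosen with the called genes known, and a match is a description of these letters and not of a bound site.

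Among the genes higher with anisomycin, Jun, the AP-1 subunit that JNK phosphorylates, had the highest levels, 6.21 and 5.85. It was also above the pool with TNFα at 3.43 and 3.74. Its difference was 2.44 ± 0.31 or 5.44-fold (adjusted p = 0.00372). Btg2, an antiproliferative gene that recruits the deadenylase complex, was at 5.38 and 5.26 with anisomycin and at 2.86 and 3.35 with TNFα (2.21 ± 0.26, adjusted p = 0.002). This rested on 1 of its 3 probes, and all 3 probes with marked spots kept gave 2.14. The zinc finger factor Egr1 was at 4.94 and 4.48 with anisomycin and at 2.78 and 3.002 with TNFα (1.82 ± 0.29, adjusted p = 0.0345). These 3 genes were more than 2-fold above the pool on all 4 arrays. The agents thus differed in the degree of the rise over it. No array carried untreated wild type MEFs in Cy5. With marked spots left out of the fit, Btg2 kept its call whichever of the 4 arrays was dropped, whereas Jun and Egr1 did not.

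The other genes named on the anisomycin side stayed within about 2-fold of the pool with TNFα. Chka, choline kinase, was at 1.93 and 1.27 with anisomycin and at 0.17 and -0.26 with TNFα (1.65 ± 0.17, adjusted p = 0.00301), and its 3 probes ranged from 0.92 to 2.05. Arfl4 (now Arl4d), a small GTPase, was at 0.85 and 0.91 with anisomycin and under the pool at -0.59 and -0.61 with TNFα (1.48 ± 0.15, adjusted p = 0.00462). Ier5l was at 2.23 and 1.76 against 0.60 and 0.71 (1.34 ± 0.19, adjusted p = 0.00689). Gdap10 was at 1.59 and 1.36 against 0.39 and 0.18 (1.20 ± 0.14, adjusted p = 0.00184). The transcript 1500001A10Rik (now Srrm4) was at 1.96 and 1.27 against 0.05 and -0.52, Zcchc3 at 1.19 and 1.37 against 0.25 and 0.37, and the cyclin-dependent kinase Pctk1 (now Cdk16) at 0.36 and 0.39 against -0.52 and -0.45. The histone genes Hist1h2bm (0.69 and 0.95 against -0.52 and -0.04) and Hist1h2ae (2.04 and 1.18 against 1.05 and 0.33) were also called, and as members of a family of near-identical genes their probes may share targets. The other called transcripts, 5830468K08Rik (2.45) and C130098D09 (1.24), were not well above background in Cy5 on any of the 4 arrays, so their differences are between signals that were not measured on either side.

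Feedback regulators and immediate early genes joined this group with marked spots kept. Dusp1, the phosphatase that inactivates p38 and JNK, was at 5.06 and 4.66 with anisomycin and at 1.39 and 1.67 with TNFα, a difference of 3.33 ± 0.24 (adjusted p = 9.63e-06, 2 of 4 spots marked). Atf3, a factor of the CREB family induced by stress, was at 3.75 and 3.37 against 2.02 and 1.33 (adjusted p = 0.000139, 2 of 4 spots marked). Ddit3, which encodes CHOP, was at 2.27 and 1.38 against 0.61 and 0.02 (adjusted p = 0.0153, 2 of 4 spots marked). Socs3, the suppressor of cytokine signalling, was at 1.099 and 0.83 with anisomycin and under the pool with TNFα at -0.21 and -0.18 (adjusted p = 0.00019, 1 of 4 spots marked). The 2 groups of arrays did not overlap for any of these 4 called genes. With marked spots left out, the same held for 28.2% of all genes tested.

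Genes of the Ier, Id and Phlda list leaned towards anisomycin. All 8 members tested had a positive mean difference (7 of 8 in each replicate pair), with a median of 0.93 against -0.0036 over all genes, and the median was 0.83 and 0.70 in the replicate pairs and 0.70 under another background correction and dye normalisation. Only Ier5l was called, and 6 of 16 members were called with marked spots kept. Id1, an inhibitor of basic helix-loop-helix factors, was at 1.43 and 1.64 with anisomycin and under the pool at -0.35 and -0.07 with TNFα (3 of 8 spots marked). Ctgf (now Ccn2), a matricellular protein, was at 3.08 and 2.89 against 0.93 and 0.45 (3 of 4 spots marked). Ier2 was at 2.31 and 3.02 against 0.85 and 0.48 (2 of 8 spots marked), whereas its single probe free of marks did not pass (1.65, adjusted p = 0.374). Id2 (0.97) and id3 (0.89) were the remaining members. Phlda1 had the opposite sign, at 1.55 and 1.21 with anisomycin and 2.39 and 1.99 with TNFα (-0.81, adjusted p = 0.112, 3 of 4 spots marked).

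In the Dusp and Spry list, 8 of 10 members tested had a positive difference and the median was 0.41, but none was called and 1 (Dusp1) was called with marked spots kept. Errfi1, listed as 1300002F13Rik, came closest at 1.14 (adjusted p = 0.0734). Of 14 Egr, Nr4a and Klf factors Egr1 was called, and Klf4 (1.30) and Nr4a1 (0.86) were called with marked spots kept. Other well-known immediate early genes were above the pool with both agents and did not pass the test of their difference. Fos was at 4.13 and 4.41 with anisomycin and at 3.03 and 3.42 with TNFα (1.05, 95% interval 0.17 to 1.93, adjusted p = 0.756, 1 of 4 spots marked). Junb was at 1.40 and 1.53 against 1.54 and 1.35, a difference of 0.02 with a 95% interval from -0.26 to 0.30 (3 of 8 spots marked). Ptgs2, which encodes cyclooxygenase 2, was at 2.32 and 0.91 against 1.56 and 0.70, with replicates that differed by more than the agents did. Zfp36, which encodes the mRNA decay factor tristetraprolin, was at 4.08 and 3.72 against 2.62 and 3.14 (1.02, adjusted p = 0.177, 3 of 8 spots marked).

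**Figure D2:**
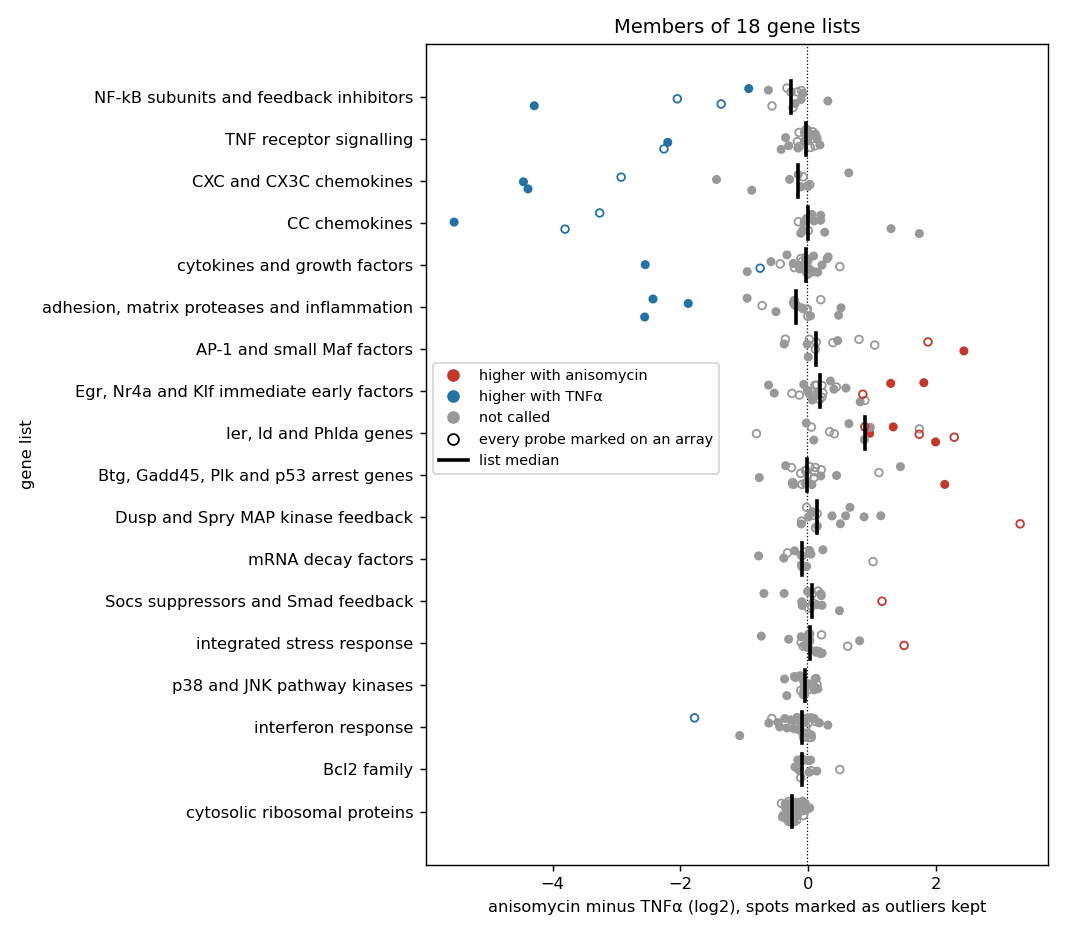
Difference between anisomycin and TNFα (log2) for the members of 18 gene lists, with marked spots kept; red and blue points were called, grey points were not, open circles are genes with every probe marked on at least 1 array, thick bars are list medians and the dotted line is the median of all genes. The list of Ier, Id and Phlda genes lies to the right (median 0.89), and the chemokine lists have a few members far to the left.

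No gene was called in the lists of mRNA decay factors (9 tested), p38 and JNK pathway kinases (17 tested), the Bcl2 family (12 tested) or cytosolic ribosomal proteins (39 tested). The ribosomal proteins leaned one way: 36 of 39 had a negative difference, against 7158 of all 13980 genes, with a median of -0.26, and the median was -0.27 and -0.20 in the replicate pairs, -0.17 under the other normalisation and -0.15 in the authors' table. The Bcl2 family (10 of 12 negative, median -0.14) and the fibroblast markers (7 of 8 negative, median -0.12) also had mostly negative differences. In RNA of whole cultures, a change in each cell and a change in a part of the cells cannot be told apart.

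**Figure D3:**
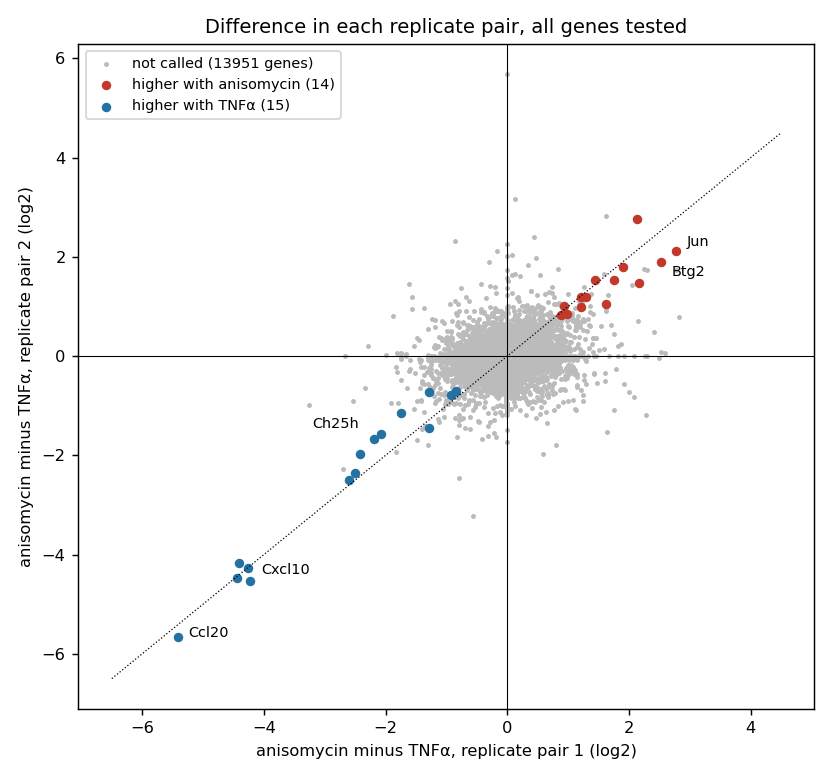
Difference between anisomycin and TNFα (log2) in replicate pair 1 (horizontal) and pair 2 (vertical) for the 13980 genes tested; red points were called higher with anisomycin (14), blue points higher with TNFα (15) and the dotted line marks equal differences. The called genes lie near the dotted line, and all of them have the same sign in both pairs, from which they were called.

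The same 2 agents were compared on other arrays, with SB203580 and in p38α-/- MEFs, and these arrays share no sample with the 4 above. The gene Mapk14, which encodes p38α, was between 0.03 and 1.31 on the 22 wild type arrays and between -2.24 and -0.94 on the 8 arrays of p38α-/- MEFs, by 1 probe whose position against the deleted part was not known. With SB203580, all 13 genes higher with TNFα that were measured there kept their sign and 5 were called (5 of 12179 genes in all, 0.0411%), against 63.4% of all genes with the same sign. Of the 12 anisomycin genes measured 11 kept their sign and none was called (0 of 12179 genes in this direction, and 650 or 5.34% at an unadjusted p under 0.05 in either). In p38α-/- MEFs the sign was kept by all 14 TNFα genes, 6 of them called, and by 10 of 13 anisomycin genes, 2 of them called (0.0476% of 12614 genes in each single direction, 0.0951% in both together), against 60.8% of all genes. Of the genes called there, 5 were at least 2-fold higher with TNFα (0.0396%) and 2 with anisomycin (0.0159%). At an unadjusted p under 0.05 the share was 7.63%. The second array of p38α-/- MEFs with TNFα was the only one of its scan batch. The first pair of p38α-/- MEFs, within 1 batch, had the same sign for 13 of 14 and 11 of 14 genes. The anisomycin gene that lost its sign with SB203580 was 5830468K08Rik. In p38α-/- MEFs these were 5830468K08Rik, C130098D09 and 1500001A10Rik. Of them, 5830468K08Rik and C130098D09 were not well above background in Cy5 on the 4 arrays from which they were called.

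Ccl20 and Cxcl10 were higher with TNFα in all 3 settings, and Cxcl5 was called in 2 of them. Ccl20 was at 6.21 and 5.10 with TNFα and SB203580 and at 6.18 and 5.72 in p38α-/- MEFs, and its difference was -5.34 with SB203580 and -5.97 in p38α-/- MEFs. The change of its difference was 0.20 with SB203580 (95% interval -0.70 to 1.101) and -0.43 in p38α-/- MEFs (-1.44 to 0.59). Cxcl10 had differences of -4.86 and -4.30. Cxcl5 was at 3.59 and 2.996 with TNFα and SB203580. In p38α-/- MEFs it was at 0.00 and 2.29 with TNFα, and the first array did not exceed the anisomycin arrays at 0.00 (adjusted p = 0.609 by limma). A ratio of 0.00 is also what the software writes for dim signals, so these zeros are not read as levels. Ch25h was at 0.91 and 0.47 with TNFα and SB203580, so that its difference was -0.71 there and -0.94 in p38α-/- MEFs.

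Jun was at 5.21 and 4.78 with anisomycin and SB203580, and its level with TNFα and SB203580 was 4.15 and 3.92, a difference of 0.96. In p38α-/- MEFs its difference was 1.81 (adjusted p = 0.032). Btg2 was at 2.74 and 2.71 with anisomycin and SB203580 and at 2.39 and 2.60 with TNFα and SB203580, a difference of 0.23, and in p38α-/- MEFs the difference was 0.40. The change of the Btg2 difference was -1.99 with SB203580 (95% interval -2.79 to -1.18, adjusted p = 0.794) and -1.82 in p38α-/- MEFs (-2.61 to -1.02, adjusted p = 0.431). The Dusp1 difference, with marked spots kept, was 1.70 with SB203580 and 2.20 in p38α-/- MEFs, both called (adjusted p = 0.00981 and 0.000211).

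No gene changed its difference past the threshold with SB203580 (0 of 12179 genes by limma, 276 or 2.27% at an unadjusted p under 0.05), nor in p38α-/- MEFs (0 of 12614, 382 or 3.03%). Btg2 was the 1 gene past it with SB203580 when marked spots were kept. The called genes were chosen for their difference in wild type MEFs without inhibitor, so that their smaller differences elsewhere are given as a description. That difference fell from a median of 1.29 to 0.57 for the 12 anisomycin genes measured with SB203580, and from 2.20 to 1.56 for the 13 TNFα genes. In p38α-/- MEFs it fell from 1.34 to 0.40 for 13 anisomycin genes and from 2.31 to 1.31 for 14 TNFα genes. The anisomycin medians include 5830468K08Rik, which was not well above background in Cy5 where it was called.

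**Figure D4:**
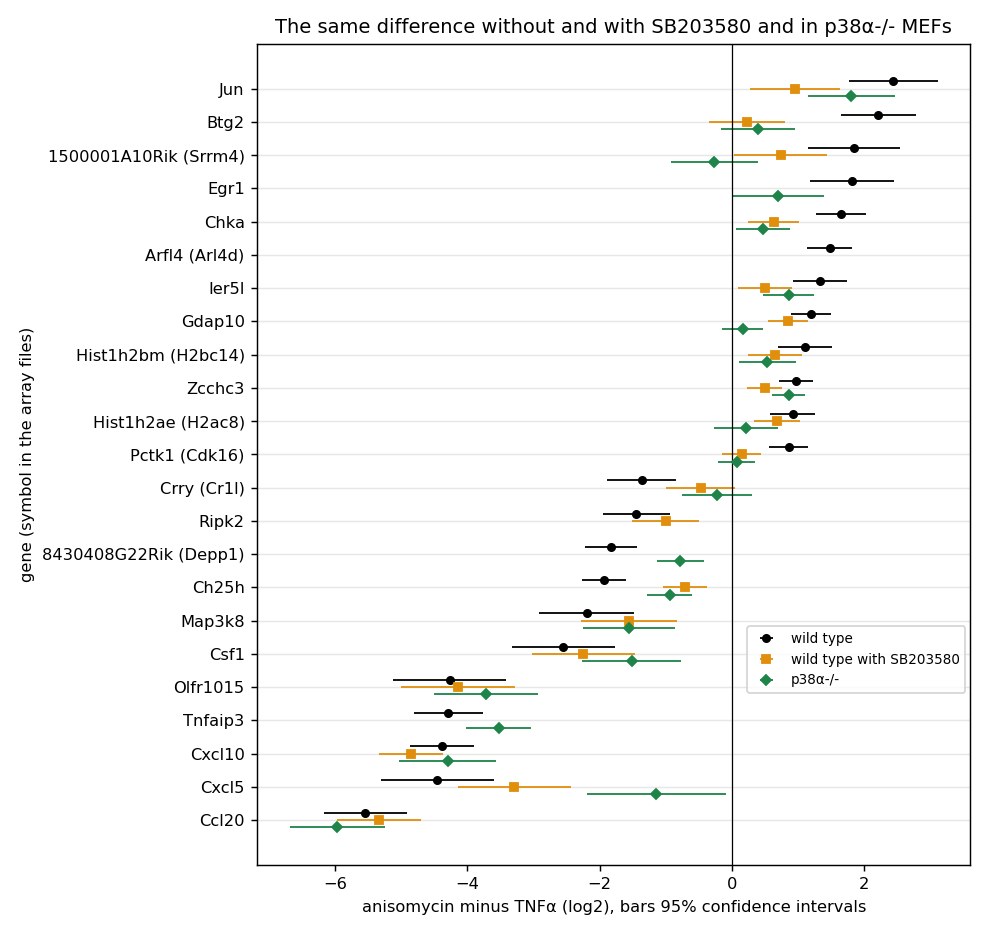
Difference between anisomycin and TNFα (log2) of 23 genes in wild type MEFs (black circles), wild type MEFs with SB203580 (orange squares) and p38α-/- MEFs (green diamonds), with 95% confidence intervals; a missing symbol is a gene with a marked spot there. Ccl20 and Cxcl10 lie between -5.97 and -4.30 in all 3 settings, and Btg2 moves from 2.21 to 0.23 with SB203580 and 0.40 in p38α-/- MEFs.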

How the data were processed

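The authors hybridised 30 2-colour Agilent 44K arrays and quantified them with Agilent Feature Extraction (9.1 in their notes, 8.1.1.1 in the headers). The deposited log10 ratios are processed Cy5 over Cy3, corrected for dye bias by linear and LOWESS scaling, with surrogates in place of dim signals. The deposited intensities and quality marks (other columns) served for alternatives, bounds and filters. The authors also deposited a table on a log2 scale judged from its values, centred near 0 (medians of the 4 arrays from -0.04 to 0.00, slopes of 0.89 to 0.95 on the scanner values).

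Control spots and spots marked as outliers were left out, and log10 ratios were turned into log2. A gene was the mean of its probes measured on all 4 arrays. Of 33453 named probes this gave 13980 of 21689 genes. The number of arrays limits the precision. limma 3.58.1 (R 4.3.3; Python 3.11.15) fitted the 22 wild type arrays (11 groups) blocking on replicate number, and all 30 arrays, blocking on genotype and replicate number, for p38α-/- MEFs, with Benjamini-Hochberg adjustment over all genes tested and a threshold of 0.05. Replicate 1 minus replicate 2 gave correlations over 0.1 for each of the 55 pairings of wild type groups (0.62 for anisomycin and TNFα). Among wild type arrays each number was scanned in 1 batch. A pairing of the samples and a shared scan batch therefore cannot be told apart. Simulated data had 200 of 13980 genes changed, independent normal noise of the fitted spread and an assumed replicate shift. Of the changed genes 73.5% were called at 1 log2 unit and 95% at 2, with 6.37% and 5.94% of the calls unchanged genes. These shares describe the fit under those settings and do not give the power or the share of false calls on the real arrays.

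In each direction the 12 largest differences that were called, had the same sign in both pairs and were above background in the higher group were named, besides members of fixed lists and the remaining called genes. Some called genes are counted but not reported here by name. Members and lists were chosen with earlier results of these data known. RefSeq named 15884 of 16828 NM accessions. Alternatives were other fits and arrays, normexp (offset 50) with loess, the authors' table, other probe rules, outlier marks ignored, median centring and each array left out. Added after seeing the data were the mean of the probes available on each array, and refits with marked spots kept. Bounds compare the mean Cy5 of the bright group with the higher of the dim probe's own value and the lowest well above background.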

Additional observations from a re-analysis of the deposited data

Results flagged for a closer look

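The difference between anisomycin and TNFα in Btg2 changed (marked spots kept) with SB203580 by -1.89 (95% interval -2.35 to -1.43, adjusted p = 0.0142 by limma over all genes measured on the 8 arrays). Its levels over 3 probes were 4.00 and 3.84 with anisomycin, 1.58 and 1.96 with TNFα, 1.63 and 1.47 with anisomycin and SB203580, and 1.15 and 1.44 with TNFα and SB203580. Of its 12 spots on the arrays without SB203580, 5 were marked as outliers, and with marked spots left out the change did not pass the threshold (-1.99, adjusted p = 0.794).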

How the results depend on the processing

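Of the 29 called genes, 6 (Ccl20, Ch25h, Cxcl10, Olfr1015 and Tnfaip3 among them) were called under every alternative but the fit of only the 4 arrays, all higher with TNFα. That fit gave 0 calls by limma in each direction (1201 genes at an unadjusted p under 0.05). The genes higher with anisomycin, higher with TNFα, and at least 2-fold higher with each numbered 14, 15, 11 and 13. They numbered 0, 7, 0 and 7 in 10 wild type arrays without SB203580 (746 at an unadjusted p under 0.05), 66, 38, 13 and 16 with normexp and loess, 103, 51, 31 and 30 in the authors' table, and 34, 31, 22 and 26 with marked spots kept. With all 30 arrays 17 were 2-fold higher with anisomycin. Without each array in turn the ranges were 3 to 10, 8 to 12, 3 to 10 and 8 to 12. Without the replicate block 20 genes were called, all among the 29 (10 in each direction). The count of genes whose difference changed with SB203580 was 1 with normexp and loess (Ch25h), 1 with marked spots kept (Btg2), and 0 to 3 without each array. In p38α-/- MEFs it was 1 with normexp and loess (Ch25h) and 0 to 2 without each array. With marked spots kept, the 34 and 31 genes became 21 and 25 with no replicate block, and 16 to 25 and 21 to 44 without each array. Egfr turned from -0.77 to 0.15 with the brightest probe, and Spry2 from -0.19 to 0.53 in the authors' table. The cause was not tested. Centring and the mean of available probes left all 4 counts within 1.5 times. Marks on up to 35.8% of the spots of an array left 7709 genes untested in the fit of unmarked spots.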
